A study of Mus musculus with 6 samples.

Results

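The genes described here act in plasmin formation, in protease inhibition by serpins and in blood coagulation. They were given as a list of 9 symbols, namely Plau, Plat, Plaur, Serpine2, Serpina3n, Serpinf1, F3, Tfpi and Thbd. A gene was followed where at least 1 probe set of the array was annotated with its symbol alone, which held for 8 of the 9 genes among the 18194 named genes of the array; Serpine2 was not analysed here. The 8 genes had 14 such probe sets, and where a gene had several, the brightest one on average gave its main value.

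Cells were sorted from the left ventricle of adult male Black Swiss mice, labelled as 8 to 10 weeks old, 1 week after surgery. The surgery was transverse aortic constriction (TAC), a narrowing of the aorta that loads the ventricle with pressure, in 3 mice, or a sham operation in 3 mice. Each surgery gave 3 sorted populations with 1 Affymetrix array each: cardiac fibroblasts traced by Tie2-Cre, cardiac fibroblasts not traced by it, and endothelial cells. Tie2-Cre is a recombinase under the promoter of the receptor gene Tek, which is active in endothelial cells and in some blood cells, so tracing marks cells with present or past activity of that promoter. The reporter allele is not given in the sources used here, nor whether RNA of the 3 mice was pooled or whether the populations of 1 surgery came from the same hearts. No group has a replicate, and TAC minus sham and traced minus untraced differences are given here as values without a test.

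Plasminogen is a circulating zymogen that tissue-type plasminogen activator (Plat) and urokinase (Plau) cut to plasmin, a protease that dissolves fibrin and degrades matrix; the urokinase receptor (Plaur) holds urokinase at the cell surface. Serpins are inhibitors that trap proteases by a change of their own shape, although some members of the family, such as pigment epithelium-derived factor (Serpinf1), do not inhibit proteases. Tissue factor (F3) starts coagulation by binding factor VII, tissue factor pathway inhibitor (Tfpi) blocks that step, and thrombomodulin (Thbd) on endothelium turns thrombin towards activation of protein C. In the heart, tissue factor is known in cells around vessels and thrombomodulin in the vessel lining.

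The deposited values are intensities on a linear scale, and all differences below are on the log2 scale. Array medians lay between 106.6 and 115.2 intensity units. The sorted populations carried their defining markers: 11 of 12 endothelial markers were higher in endothelial cells, and 5 of 12 fibroblast markers were higher in fibroblasts, with a median difference of 3.71 over that list (limma, Benjamini-Hochberg adjusted p under 0.05 and at least 2-fold). The endothelial TAC array stood apart from the endothelial sham array. All 12 fibroblast markers were higher on it than on the endothelial sham array, by 0.76 to 5.26 with a median of 3.03, and the summed intensity of that list was 50238 on the endothelial TAC array and 5241 on the endothelial sham array, beside 131313 to 138026 on the fibroblast arrays. The 12 endothelial markers differed by -0.59 to -0.02 between those endothelial arrays. Of 9 detected cardiomyocyte markers 6 were at least 2-fold lower on the endothelial TAC array, with a median of -1.12, and 5 were called higher in endothelial cells than in fibroblasts; their list summed to 5666 on the endothelial TAC array and 12524 on the endothelial sham array, beside 1431 to 1981 on the fibroblast arrays. All 8 macrophage markers detected in endothelial cells were higher after TAC, 3 of them at least 2-fold, with a median of 0.83. The part of RNA from these other cells in the differences of single genes between the endothelial arrays was not tested, and in sorted bulk RNA a change in the share of a cell type cannot be told apart from a change per cell.

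The comparison of fibroblasts with endothelial cells asks in which cell type each gene was higher. Tissue factor was higher in fibroblasts and the urokinase receptor was higher in endothelial cells, and these were the 2 genes of the 8 that passed the test. F3 stood 36.8-fold above an endothelial level that was dim, so that the size of this fold is uncertain, and Plaur 2.77-fold below the endothelial level. F3 lay above the array's median on the fibroblast arrays alone, so it entered the test through the cells where it was high. The differences of the 2 serpins, 5.17 for Serpina3n and 3.89 for Serpinf1, did not pass, with standard errors of 1.77 and 1.497 beside 0.318 for F3. With surgery as a block both passed (limma adjusted p = 0.0127 for Serpina3n and 0.0296 for Serpinf1). That fit spends a further term on the same few values, so its spread leans on that of all genes. It also takes the difference as equal at the 2 surgeries. After TAC and at sham it was 2.96 and 7.39 for Serpina3n, and 1.73 and 6.06 for Serpinf1. In the main fit Thbd (-0.99), Plau (1.06), Tfpi (0.81) and Plat (0.36) did not pass either. Traced and untraced arrays of 1 surgery were averaged before the fit, so each cell type had 2 values and the spread measured is that between surgeries, which may be partly technical. Of the 12257 genes tested, 11.5% were called higher in fibroblasts and 6.5% higher in endothelial cells, beside 1 of 8 in each direction here. All 4 fibroblast arrays lay above both endothelial arrays for Serpina3n, Serpinf1, F3 and Tfpi, 4 of 8 genes against 37.8% of all genes tested, and below both for Plaur and Thbd, 2 of 8 against 19.9%. The median difference of the 8 genes was 0.94, beside 0.22 over all genes tested.

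**Figure D1:**
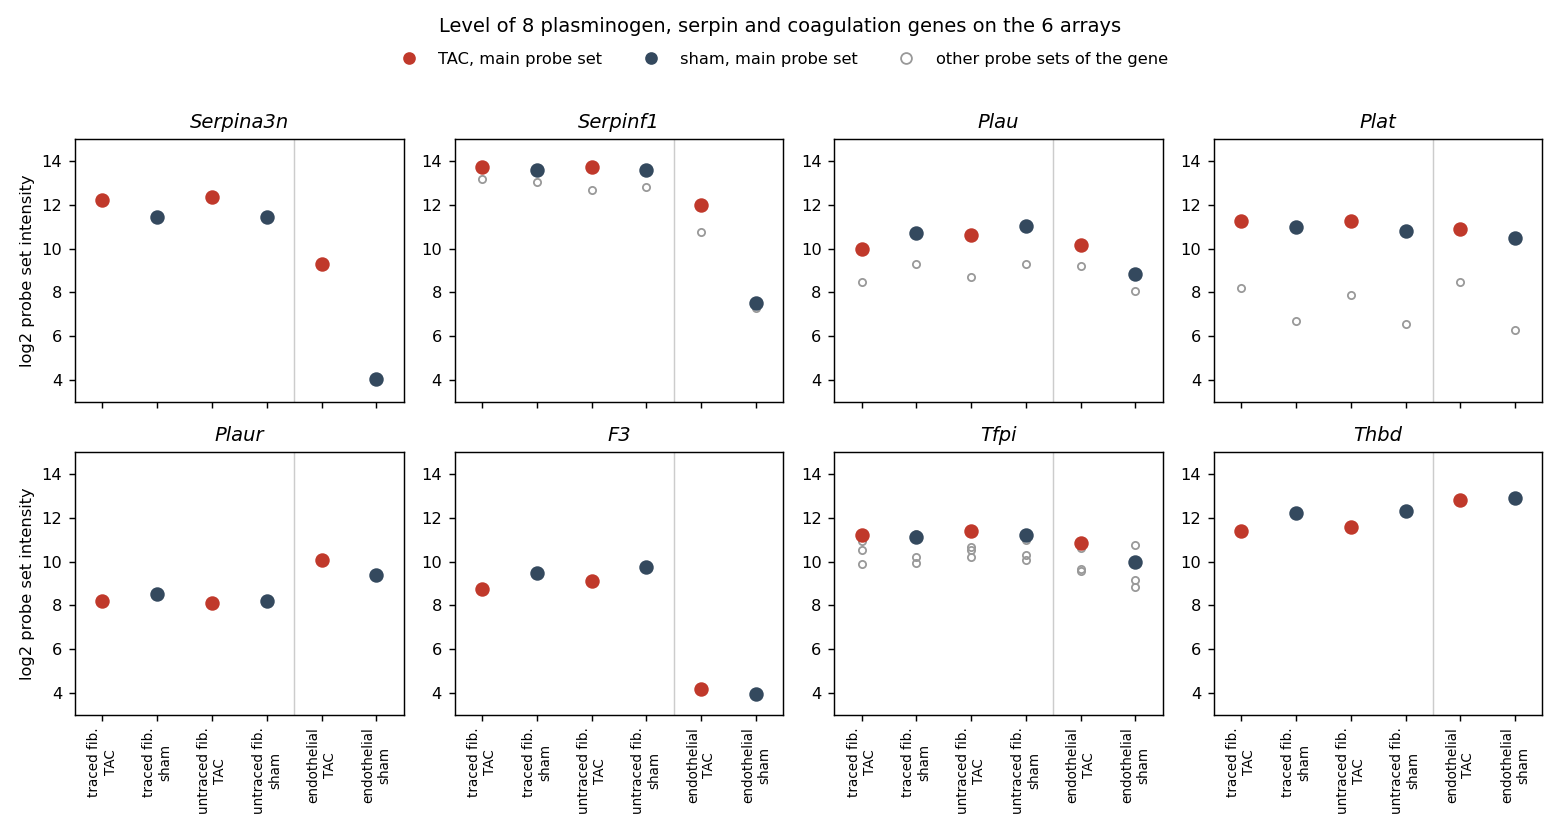
Level of each of the 8 genes on each of the 6 arrays, as log2 probe set intensity; filled points are the main probe set, red for TAC and dark for sham, and open circles are the gene's other probe sets. F3 is low on both endothelial arrays, while Serpina3n and Serpinf1 read lowest on the endothelial sham array.

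**Figure D2:**
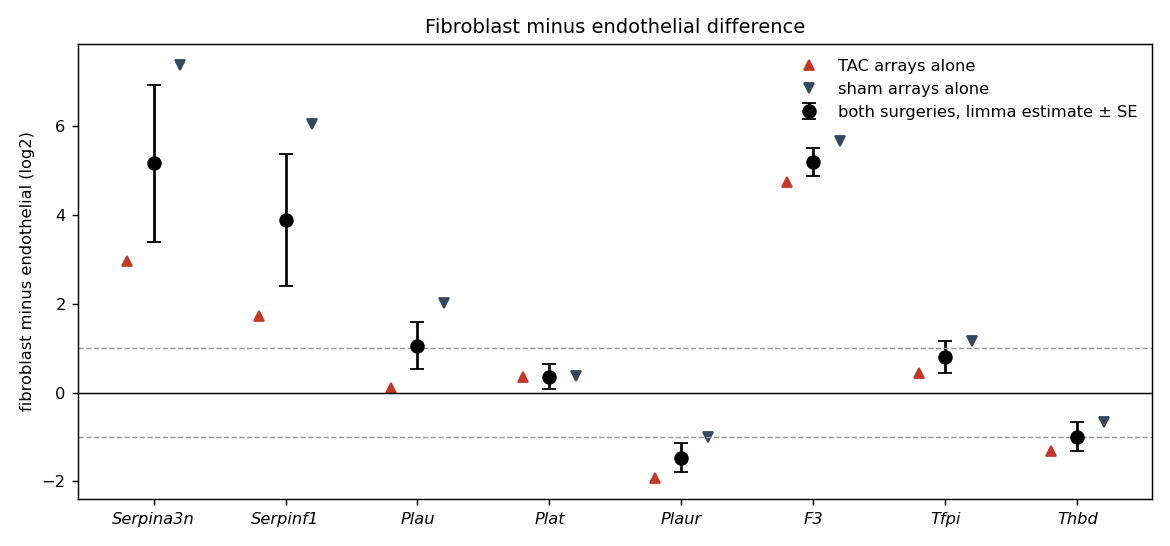
Fibroblast minus endothelial difference (log2) of the 8 genes; black points are the limma estimate over both surgeries with its standard error, red triangles the TAC arrays alone and dark triangles the sham arrays alone, and dashed lines mark 2-fold. The 2 surgeries lie close together for Plat (0.35 and 0.38) and far apart for Serpina3n (2.96 after TAC and 7.39 at sham).

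Tissue factor, the cell-surface receptor that starts coagulation, had an intensity of 429 on the traced and 557 on the untraced fibroblast array after TAC, against 704 and 860 in sham fibroblasts. On the endothelial arrays it read 18.2 after TAC and 15.4 at sham. The fibroblast and endothelial ranges were far apart, and the endothelial readings sat at percentiles 13.5 (TAC) and 10 (sham) of their arrays, so the size of the fold rests on dim values. The difference was 5.20 (SE 0.318, limma adjusted p = 0.00456), with 4.74 on the TAC arrays alone and 5.66 on the sham arrays alone. It was 5.32 without the endothelial TAC array (limma adjusted p = 0.0121) and 5.08 without the endothelial sham array (limma adjusted p = 0.0232), where the lone endothelial array is taken to vary like the fibroblast values. With 64 added to each intensity, which damps dim readings, the log2 difference was 3.08 in place of 5.20 and still passed (limma adjusted p = 0.00508).

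After TAC the F3 level was 0.71 lower in traced and 0.63 lower in untraced fibroblasts, and both TAC fibroblast arrays lay below both sham fibroblast arrays. The endothelial TAC array read 0.24 higher than the endothelial sham array, both near the floor. Its endothelial intensity was 3.70% of the mean fibroblast intensity after TAC and 1.97% at sham, where those markers stood at 9.69% to 64.5% after TAC and 0.989% to 11.6% at sham.

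The bases just before the F3 gene are shown because F3 had the clearest difference between the cell types. They are given with those of Serpina3n and Serpinf1, whose endothelial sham reading was far below all their other readings. The sequences are from RefSeq on GRCm38.p6, in the table used 5 of the 8 genes had an entry, and bases inside the annotated gene were left out. F3 lies at chr3:121723287-121723536 (plus strand), Serpina3n at chr12:104406458-104406645 (plus strand) and Serpinf1 at chr11:75422624-75422873 (minus strand). Capitals mark matches on either strand to the TATA motif spelled TATAAA, the GC box spelled GGGCGG, the motif spelled CCAAT, the AP-1 motif spelled TGANTCA and the STAT motif spelled TTCNNNGAA, and no matches overlapped.
F3: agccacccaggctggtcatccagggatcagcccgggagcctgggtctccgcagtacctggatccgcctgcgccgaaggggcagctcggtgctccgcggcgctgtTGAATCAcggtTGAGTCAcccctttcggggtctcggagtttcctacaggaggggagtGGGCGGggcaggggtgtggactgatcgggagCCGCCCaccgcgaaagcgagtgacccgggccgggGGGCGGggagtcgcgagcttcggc
Serpina3n: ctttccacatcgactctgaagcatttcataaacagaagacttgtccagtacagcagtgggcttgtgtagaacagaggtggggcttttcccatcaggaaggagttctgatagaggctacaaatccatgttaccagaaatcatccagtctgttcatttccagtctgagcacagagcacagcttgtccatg
Serpinf1: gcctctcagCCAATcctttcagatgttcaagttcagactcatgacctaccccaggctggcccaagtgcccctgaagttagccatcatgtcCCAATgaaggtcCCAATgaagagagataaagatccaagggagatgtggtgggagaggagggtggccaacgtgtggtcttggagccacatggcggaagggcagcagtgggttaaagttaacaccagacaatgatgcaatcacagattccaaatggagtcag

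The F3 window was rich in G and C (70%, beside a median of 52.4% over all listed promoters). It held 2 AP-1 matches, 146 and 135 bases before the gene start, and 3 GC box matches; 0.338% of the 32817 listed promoters held at least 2 AP-1 matches in the same length and 16.7% at least 2 GC boxes. The Serpinf1 window held 3 CCAAT matches, where 10.1% of promoters held at least 2, and had 51.6% G and C. The shorter Serpina3n window had 46.3% G and C and held none of the 5 motifs, of which the CCAAT box was found in 26.3% and the STAT motif in 5.49% of promoters at that length. A match is only a run of letters, and no binding was measured.

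The serpin Serpina3n, a secreted inhibitor and acute-phase protein of mice, had an intensity of 4730 on the traced and 5210 on the untraced fibroblast array after TAC, against 2779 and 2816 in sham fibroblasts. The endothelial TAC array read 639 and the endothelial sham array 16.7. Each fibroblast reading was above each endothelial reading, and the endothelial readings differed far more than the fibroblast readings did. The fibroblast minus endothelial difference was 5.17 (SE 1.77, limma adjusted p = 0.114). It was 2.96 on the TAC arrays alone and 7.39 on the sham arrays alone. It was 7.80 without the endothelial TAC array and 2.54 without the endothelial sham array. In these fits the lone endothelial array is taken to vary like the fibroblast values, so they leave out the endothelial spread.

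Serpinf1, which encodes pigment epithelium-derived factor, a secreted serpin known to limit vessel growth, was among the brightest transcripts of the fibroblast arrays. It read 13564 on the traced and 13817 on the untraced array after TAC, against 12332 and 12244 at sham, so all 4 lay above the 99th percentile of their arrays. On the endothelial arrays it read 4133 after TAC and 184 at sham. The difference was 3.89 (SE 1.497, limma adjusted p = 0.145), with 1.73 on the TAC arrays alone and 6.06 on the sham arrays alone. It was 6.14 without the endothelial TAC array and 1.65 without the endothelial sham array. In these fits the lone endothelial array is taken to vary like the fibroblast values, so they leave out the endothelial spread. The gene's other probe set gave 3.90 (limma adjusted p = 0.0741, over all probe sets).

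The endothelial TAC levels of these serpins were 12.9% (Serpina3n) and 30.2% (Serpinf1) of the mean fibroblast TAC intensity, against 0.597% and 1.5% at sham. The TAC percentages lie within the range of the 12 fibroblast markers, from 9.69% for Islr to 64.5% for Col3a1. At sham Serpinf1 lay within the range of the markers too, and the Serpina3n percentage was under its lower end of 0.989%, but rests on a reading at percentile 11.1 of the endothelial sham array, so its place against the markers is uncertain.

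**Figure D3:**
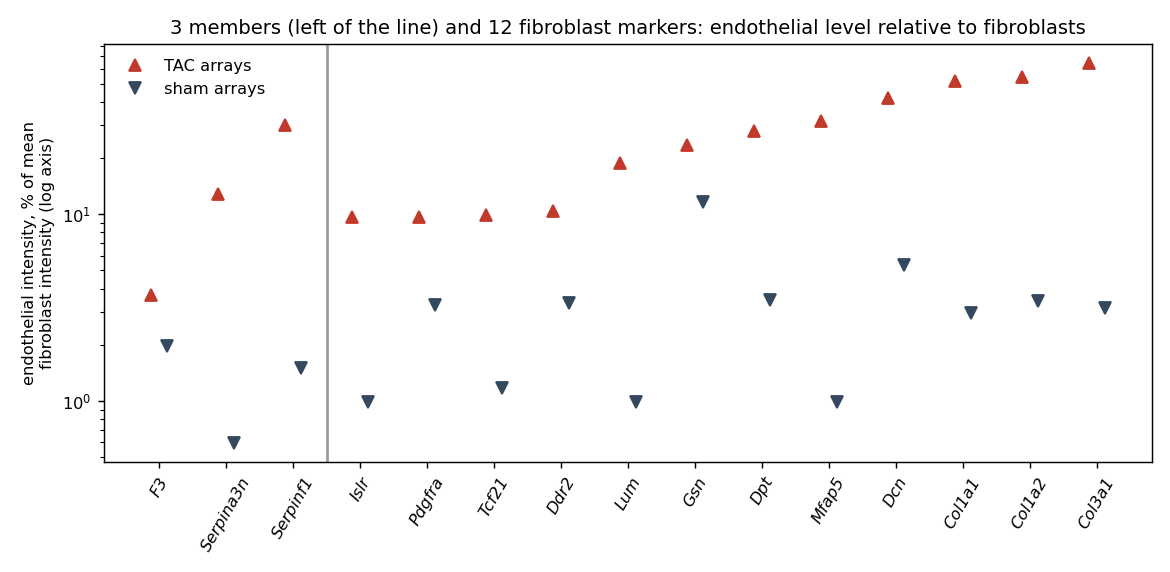
Endothelial intensity as a percentage of the mean fibroblast intensity (log axis), for TAC arrays (red) and sham arrays (dark), with F3, Serpina3n and Serpinf1 left of the line and 12 fibroblast markers right of it. The TAC percentage lies above the sham percentage for each gene shown, with 3.70% against 1.97% for F3 and 30.2% against 1.5% for Serpinf1.

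Urokinase, encoded by Plau, had an intensity of 1019 on the traced and 1559 on the untraced fibroblast array after TAC, against 1695 and 2075 in sham fibroblasts. The endothelial arrays read 1169 after TAC and 465 at sham. The lowest reading was that of sham endothelial cells, and the endothelial TAC array lay inside the range of the fibroblast arrays. Over both surgeries the fibroblast minus endothelial difference was 1.06 (SE 0.524, limma adjusted p = 0.225). It was 0.11 on the TAC arrays alone and 2.01 on the sham arrays alone. The other probe set of Plau gave a difference of 0.30 (limma adjusted p = 0.688, over all probe sets), with -0.64 after TAC and 1.25 at sham.

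Tissue-type plasminogen activator, encoded by Plat and released by endothelium, was close to even across the arrays. It read 2429 on the traced and 2427 on the untraced fibroblast array after TAC, against 2013 and 1787 at sham, and 1911 on the endothelial TAC array, against 1456 on the endothelial sham array. The fibroblast minus endothelial difference was 0.36 (SE 0.276, limma adjusted p = 0.398), and fibroblast and endothelial readings overlapped.

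The urokinase receptor gene Plaur had an intensity of 294 on the traced and 272 on the untraced fibroblast array after TAC, against 364 and 299 at sham. It was brighter on both endothelial arrays, at 1079 after TAC and 664 at sham. The difference was -1.47 (SE 0.324, limma adjusted p = 0.0447), with -1.93 on the TAC arrays alone and -1.01 on the sham arrays alone. The call was close to the threshold and was lost without the endothelial TAC array (-1.12, limma adjusted p = 0.0653) and without the untraced sham fibroblast array (-1.40, limma adjusted p = 0.0600). The detected macrophage markers, another known site of Plaur expression, had a median fibroblast minus endothelial difference of -0.29, and the summed intensity of all 12 listed was 1837 and 1319 on the TAC and 2495 and 1835 on the sham fibroblast arrays, beside 2310 on the endothelial TAC and 1357 on the endothelial sham array. Cx3cr1, the 1 gene of that list called higher in fibroblasts (2.73, limma adjusted p = 0.0469), added much to the sham fibroblast sums. It read log2 9.94 in traced and 9.09 in untraced sham fibroblasts, beside 5.98 and 5.84 on the endothelial TAC and sham arrays. The part of macrophage RNA in the Plaur difference was not tested.

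Thrombomodulin, the thrombin receptor of the vessel lining encoded by Thbd, was bright in all populations. It read 2710 on the traced and 3100 on the untraced fibroblast array after TAC, against 4738 and 5141 at sham, and 7256 on the endothelial TAC array, against 7815 on the endothelial sham array. Every fibroblast reading lay below both endothelial readings, but the difference of -0.99 (SE 0.334) did not pass (limma adjusted p = 0.110). With surgery as a block Thbd was not called either, as -0.99 is short of 2-fold (limma adjusted p = 0.0426). That fit takes the difference as equal at the 2 surgeries, where it was -1.32 after TAC and -0.66 at sham. Among the 12 endothelial markers, Tek, the receptor gene whose promoter drives the Cre, differed by -1.13 and the other 11 by -6.99 to -5.37. On the fibroblast arrays the 9 markers of mesothelium, another known site of thrombomodulin, summed to 389 and 430 (TAC) and 495 and 402 (sham). They summed to 1978 on the endothelial TAC and 1412 on the endothelial sham array. Most of these endothelial sums came from 1 gene, Wt1, at log2 10.52 and 9.79. Wt1 was called higher in endothelial cells (-4.89, limma adjusted p = 0.00466). Only 3 of the 9 markers were detected, and the list's median log2 level was 5.14 to 5.54 on the fibroblast arrays. That median was 5.81 on the endothelial TAC and 6.22 on the endothelial sham array. The part of mesothelial RNA in the Thbd difference was not tested.

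Tfpi, the inhibitor of the tissue factor and factor VII complex, read 2426 on the traced and 2667 on the untraced fibroblast array after TAC, against 2212 and 2393 at sham. The endothelial arrays read 1867 after TAC and 1021 at sham, below each fibroblast array. The difference was 0.81 (SE 0.362, limma adjusted p = 0.190), and the other 3 probe sets of the gene gave 0.24 to 1.04, none of which passed.

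The comparison of TAC with sham asks how the level of each gene differed 1 week after the aorta was narrowed. In fibroblasts the differences were small: 4 of the 8 genes were lower in both populations after TAC, 4 were higher in both, and 0 reached 2-fold in both populations in either direction, where 4.33% of the 11623 genes detected in fibroblasts reached 2-fold higher and 1.79% 2-fold lower. In traced fibroblasts alone, where 6.19% of genes reached 2-fold higher and 2.66% lower, and in untraced fibroblasts alone, where 4.98% and 2.95% did, 0 of the 8 reached it too. The lower genes were Thbd (-0.81 in traced and -0.73 in untraced fibroblasts), Plau (-0.73 and -0.41), F3 (-0.71 and -0.63) and Plaur (-0.31 and -0.13). The higher ones were Serpina3n (0.77 and 0.89), Plat (0.27 and 0.44), Serpinf1 (0.14 and 0.17) and Tfpi (0.13 and 0.16). For comparison, 32.7% of the detected genes were lower in both populations and 44% higher in both. The median over the 8 genes was -0.04 for the mean of the populations, beside 0.05 over all detected genes.

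In endothelial cells 7 of the 8 genes passed the filter on low values, F3 being the exception, and 3 of these 7 were at least 2-fold higher after TAC, where 10.9% of the 11157 detected genes were. Serpina3n passed the filter on the endothelial TAC array alone, so it entered this count through the array where it was high. Serpina3n stood 38.3-fold higher, Serpinf1 22.4-fold (11.4-fold by its other probe set) and Plau 2.52-fold. Tfpi (0.87), Plaur (0.70) and Plat (0.39) were higher by less, and Thbd was 0.11 lower. None was 2-fold lower, beside 1.83% of the detected genes. The median of the 7 genes was 0.87, beside 0.18 over all detected genes, and 63.1% of detected genes lay above 0. Between the same arrays the medians were 3.03 for fibroblast, 0.83 for macrophage and -1.12 for cardiomyocyte markers. Because the sham reading of Serpina3n sat at the 11.1 percentile of its array, its fold rests on a dim value, and with 64 added to each intensity the log2 difference was 3.12 in place of 5.26.

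**Figure D4:**
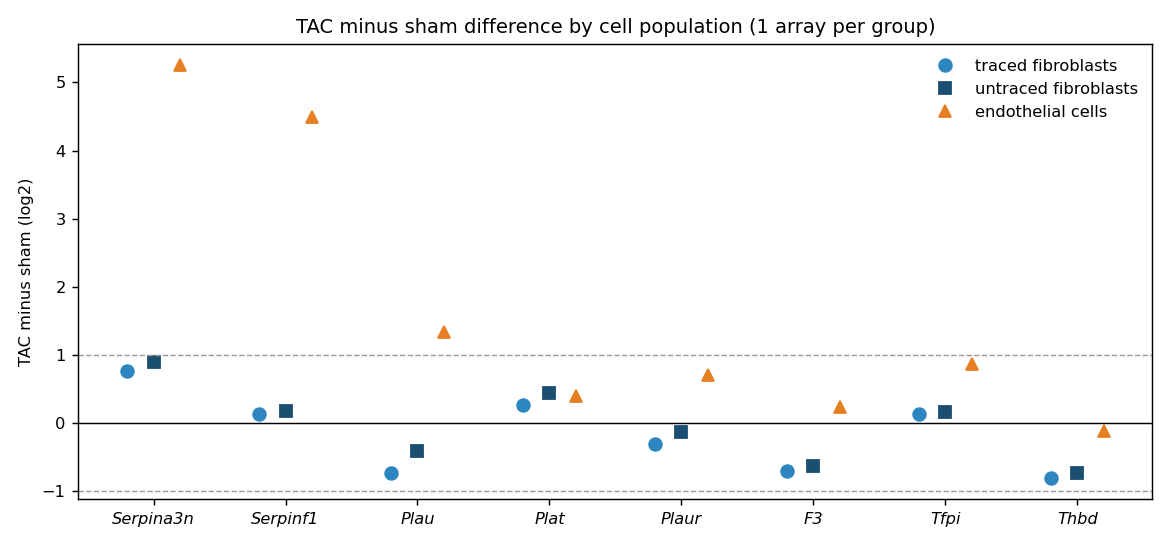
TAC minus sham difference (log2) of the 8 genes in traced fibroblasts (circles), untraced fibroblasts (squares) and endothelial cells (triangles), 1 array per group, with dashed lines at 2-fold. The fibroblast points lie between -0.81 and 0.89, and Serpina3n (5.26), Serpinf1 (4.49) and Plau (1.33) exceed 2-fold in endothelial cells.

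Plau, Plaur and F3 were lower in both fibroblast populations after TAC and higher in endothelial cells, a pattern found in 15.2% of the 12257 detected genes, and 0 of the 8 genes had the reverse pattern, found in 8.81%. For Plau both probe sets showed it: the second was -0.82 in traced and -0.60 in untraced fibroblasts and 1.18 in endothelial cells. F3 entered this count through the fibroblast arrays, and its endothelial readings were near the floor. Its endothelial difference of 0.24 was 0.05 with 64 added to each intensity. For Plaur the untraced fibroblast difference was -0.13, less than 0.23, the spread of a difference between 2 arrays. The level of Plau in endothelial cells was 90.7% of the mean fibroblast level after TAC and 24.7% at sham.

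Transcripts that mark other cell types also shifted on the fibroblast arrays. The summed intensity of the 12 endothelial markers was 2637 in traced and 3554 in untraced fibroblasts after TAC, against 5201 and 5777 at sham, and the 9 that were detected had a median difference of -0.63, while Thbd was -0.77 on average. Over the 9 mural markers the median difference was -0.56, but the list did not move in one direction. Of these 9, 3 were at least 2-fold lower in both populations after TAC and 1 was at least 2-fold higher. Myh11 was lower (-1.92 in traced and -1.71 in untraced fibroblasts), while Mcam was higher (2.34 and 1.67). Cspg4 and Pdgfrb were also higher in both populations. The 12 fibroblast markers had a median of -0.10, beside -0.67 for F3 and -0.57 for Plau. Whether endothelial or mural RNA has a part in these differences was not tested.

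Probe sets of the same gene did not always agree. The second probe set of Serpinf1 was 0.15 in traced and -0.13 in untraced fibroblasts after TAC, so the gene was higher in both populations by its main probe set alone. For Plat the second probe set was 1.48 higher in traced fibroblasts, 1.34 in untraced fibroblasts and 2.18 in endothelial cells after TAC, above 2-fold in each, where the main probe set gave 0.27, 0.44 and 0.39. Its intensities were 292, 239 and 352 on the traced, untraced and endothelial TAC arrays, against 104, 94.4 and 77.8 on the sham arrays, all 3 of them below the array's median. For Tfpi, which is known to be spliced into several forms, one further probe set was 0.60 higher in both fibroblast populations and 0.82 higher in endothelial cells after TAC, and another was -0.29 in traced fibroblasts, -0.46 in untraced fibroblasts and -0.12 in endothelial cells. Probe sets can read different transcript ends, and which forms these read was not analysed here.

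**Figure D5:**
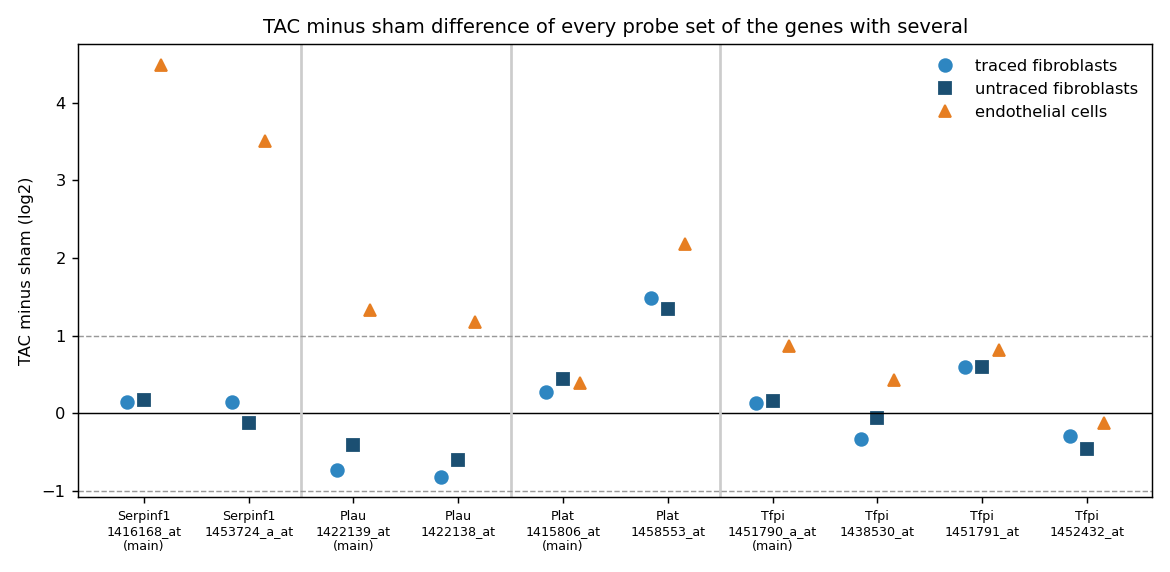
TAC minus sham difference (log2) for every probe set of Serpinf1, Plau, Plat and Tfpi, in traced fibroblasts (circles), untraced fibroblasts (squares) and endothelial cells (triangles). The Plau probe sets give like values, while the second Plat probe set lies at 1.34 to 2.18 against 0.27 to 0.44 for the main one.

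The comparison of traced with untraced fibroblasts asks whether Tie2-Cre tracing marks fibroblasts with other levels of these genes. By the main probe sets, traced minus untraced differences of the 8 genes lay between -0.61 and 0.29 at the 2 surgeries, and 0 of 8 reached 2-fold at both, beside 0.0344% of detected genes in each direction. Plau had the widest of these, -0.61 after TAC and -0.29 at sham, but its second probe set gave -0.21 and 0.01. F3, with 1 probe set, was lower in traced fibroblasts at both surgeries, by -0.38 and -0.29. Thbd was -0.19 and -0.12, Tfpi -0.14 and -0.11, Serpina3n -0.14 and -0.02, and Serpinf1 -0.03 and 0.01. Plaur (0.11 and 0.29) and Plat (0.00 and 0.17) were not lower in traced fibroblasts. Other probe sets were higher in traced fibroblasts for Serpinf1 (0.50 after TAC and 0.22 at sham), Plat (0.29 and 0.14) and Tfpi (0.42 and 0.25 by 1 of its other 3). The rest of the other Tfpi probe sets were lower, at -0.35 and -0.08 for one and -0.14 at both surgeries for another. The standard deviation of this difference over all detected genes was 0.274 after TAC and 0.293 at sham, with medians of -0.07 and -0.11.

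Other genes of these systems were followed through 3 lists. Of 20 genes of the plasminogen system with a named probe set, 11 were detected, with a median difference of 0.27. Of these 11, 2 were called for fibroblasts and 0 for endothelial cells, beside 11.5% and 6.5% of the 12257 genes tested. The 2 called were the endocytic receptor genes Lrp1 (4.80, limma adjusted p = 0.0183) and Vldlr (4.32, limma adjusted p = 0.0127), which clear complexes of proteases and serpins. Plasminogen itself (Plg), the inhibitor genes Serpinb2 and Serpinf2, and the antiprotease gene A2m lay below the array's median on every array. The annexin gene Anxa2 and its partner S100a10, which bind plasminogen at the cell surface, differed by 0.19 and -0.01 between the cell types.

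Of 35 genes of coagulation and its control with a named probe set, 19 were detected, with a median difference of 0.59. Of these 19, 3 were called for fibroblasts and 3 for endothelial cells, beside 11.5% and 6.5% of all genes tested. The endothelial ones were von Willebrand factor, Vwf (-3.78, limma adjusted p = 0.00465), the multimerin gene Mmrn2 (-5.88, limma adjusted p = 0.00628) and Entpd1, an enzyme that breaks down ATP and ADP (-2.51, limma adjusted p = 0.0300). The fibroblast ones were prostacyclin synthase, Ptgis (4.96, limma adjusted p = 0.0348), the ecto-nucleotidase gene Nt5e (3.64, limma adjusted p = 0.0137) and Vkorc1, which recycles vitamin K (1.55, limma adjusted p = 0.0194). Prothrombin (F2), F5, F7, F8, F9, F10, F11 and F12 and the fibrinogen genes Fga, Fgb and Fgg were below the array's median throughout. The 9 detected serpins of the third list had a median of 0.12. Of these 9, 3 were called for fibroblasts and 1 for endothelial cells, beside the same 11.5% and 6.5%. For fibroblasts they were the C1 inhibitor gene Serping1 (3.98), Serpinb8 (1.43) and Serpinb6a (1.37), and for endothelial cells Serpinb6b (-1.92).

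Of 18 coagulation genes detected in fibroblasts, TAC arrays showed 2 that passed 2-fold upwards in traced and untraced cells alike and 1 that passed it downwards. Over all genes detected in fibroblasts 4.33% did so upwards and 1.79% downwards. Serpind1, heparin cofactor II and an inhibitor of thrombin, was 1.73 higher in traced and 1.72 higher in untraced fibroblasts, and Tfpi2, a relative of Tfpi that inhibits plasmin, was 1.66 and 1.48 higher. The protein C receptor gene Procr, which presents protein C to the thrombin and thrombomodulin complex, was lower (-1.27 and -1.09), alongside the lower values of Thbd. In the plasminogen list 0 of 11 were higher and 1 was lower, the adhesive protein vitronectin, Vtn (-1.63 and -2.50), a binding partner of the urokinase receptor. Of 8 other serpins 1 was higher, again Serpind1, and 0 were lower. In endothelial cells 10.9% of all detected genes were at least 2-fold higher after TAC and 1.83% lower. Of 10 plasminogen genes 3 were at least 2-fold higher, namely the gelatinase gene Mmp2 (3.96), Mmp14 (2.11) and Lrp1 (2.02). Among 17 coagulation genes 3 were, namely Ptgis (2.89), the thrombin receptor gene F2rl3 (1.51) and Entpd1 (1.11). Mmp2 and F2rl3 lay below the array's median on the endothelial sham array, so they entered these counts through the TAC array. Of 8 other serpins Serping1 was higher (2.11) and Serpinb6b lower (-1.04). Mmp2, Mmp14, Lrp1, Ptgis and Serping1 were also brighter in fibroblasts, by 3.20 to 4.96, although Mmp2 and Mmp14 did not pass. F2rl3 (-1.91, which did not pass) and Entpd1 (-2.51) were brighter in endothelial cells. Between the same endothelial arrays the 12 fibroblast markers had a median of 3.03. The part of fibroblast RNA in these differences was not tested.

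The genes most like each member were found by the root mean square difference of log2 levels over the 6 arrays, after each gene's own mean was taken off, among 12256 other detected genes. F3, whose own standard deviation over the arrays was 2.47, was closest to Htra4 (0.230), Nalcn (0.245) and Maob (0.358). Serpina3n (2.89) was closest to Mfap4 (0.232), Frzb (0.236) and Srpx2 (0.261), and Serpinf1 (2.25) to the collagen gene Col5a1 (0.232), Mfap5 (0.262) and S100a4 (0.279). Thbd (0.568) was closest to 6430548M08Rik (0.0960), the transglutaminase gene Tgm2 (0.119) and Tek (0.119). Plaur (0.733) had Ptprk (0.0890), C230037L18Rik and Cacng1 nearest to it, and Plau (0.701) had Sfxn1 (0.151), Kiz and Ubxn2b. Tfpi and Plat varied by 0.463 and 0.257 over the arrays, and their nearest genes were Prdx3 (0.0270), Copg1 and Vhl for Tfpi and Svbp (0.0410), Ext1 and Reep5 for Plat.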

How the data were processed

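The deposited values are 1 intensity per probe set and array for 45101 probe sets on 6 arrays, made by the authors with RMA, per the submitters' processing notes; its version and the step back to a linear scale were not found there. Per the labels' protocols, 200 ng of RNA was labelled. RMA gives no detection call and draws dim probe sets towards each other. No further normalization was applied, log2 was taken, and 0 pairs of arrays were identical. Genes were named from the platform annotation, with symbols updated by identifier (99.4% matched); 34958 probe sets had 1 symbol, 932 several and 9211 none listed. A gene counted as detected above its array's median on at least 1 array compared. The cell types were set against each other in limma 3.58.1 under R 4.3.3 (lmFit, then eBayes, with Benjamini-Hochberg adjustment over 12257 genes); calls needed an adjusted p under 0.05 and at least 2-fold. The fit was run on simulated arrays with 1 common spread and no surgery effect. That run therefore does not show how the fit handles endothelial arrays that differ as these do. Precision is limited by the number of arrays, 1 per group, and other comparisons give differences without a test. The 9 genes, the gene lists and the tests were chosen with earlier results of these data known. Named genes of the 3 wider lists are those that passed the test or reached 2-fold after TAC, with genes below the median on every array and 2 plasminogen-binding genes added after their values were seen; the 3 most alike genes are given for each member.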

Additional observations from a re-analysis of the deposited data

Results flagged for a closer look

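For 3 genes both fibroblast populations lay on one side of sham after TAC and endothelial cells on the other. The fibroblast mean TAC minus sham difference less the endothelial one was -1.90 for Plau, -0.92 for Plaur and -0.91 for F3. With 1 array per group these differences between cell types were not tested, and the F3 reading in endothelial cells was near the floor of both arrays. In untraced fibroblasts the Plaur difference was only -0.13.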

How the results depend on the processing

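The count of genes higher in fibroblasts (1415) lay between 685 and 1715 when 1 array was left out, was 2298 with surgery as a block and 2211 with the 4 fibroblast arrays as separate values, and 2161 (TAC arrays) and 2856 (sham arrays) at 2-fold with no test. The count higher in endothelial cells (797) lay between 472 and 817 when 1 array was left out, both low counts being without the endothelial sham array, and was 1234 on the sham arrays at 2-fold. Among the 8 genes, 1 to 3 were called higher in fibroblasts without 1 array, and 3 with surgery as a block or with separate arrays (F3, Serpina3n and Serpinf1 in each). From 0 to 1 was called higher in endothelial cells without 1 array by limma; in the fits with 0, the genes with an unadjusted p under 0.05 numbered 2 without the untraced sham array and 1 without the endothelial TAC array. The cause was not tested. Fits without an endothelial array take the lone endothelial array to vary like the fibroblast values, so their counts leave out the endothelial spread. F3 passed in each alternative fit that was run. Plat changed sign with its second probe set (-0.03, limma adjusted p = 0.983).

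Genes 2-fold higher after TAC in both fibroblast populations (503) fell to 256 above the upper quartile, and lower ones (208) were 137 with 64 added and 343 in untraced fibroblasts alone. In endothelial cells the 1213 higher genes became 618 above the upper quartile, and the 204 lower ones 132 there and 130 with 64 added. The 4 genes higher in traced fibroblasts became 2 without cross-hybridising probe sets and 2 with 64 added. The 4 lower ones became 7 with no filter on low values, and 0 with the mean of probe sets, above the upper quartile or with 64 added. Fewer genes enter under the stricter filter. Quantile normalization a second time moved the endothelial median TAC difference of all genes by -0.11 and the fibroblast minus endothelial sham median by -0.12, and 0 of the 8 genes changed sign in the 5 differences compared. Of 114 TAC minus sham values of the 8 genes under alternatives, 95 moved by less than 0.23, the spread of a difference estimated from traced against untraced responses; the rest concern Plat, Serpina3n, Serpinf1 and Tfpi. No paired analysis was possible because each group has 1 array, so the groups share fewer than 2 replicate numbers; this concerns replicate numbers only, and surgery as a block, given above, pairs the cell types within each surgery.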

Other observations

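Platelet transcripts, which could enter sorted cells with blood, were low to moderate. Of 9 named platelet markers 6 were detected. The summed intensity of all 9 was 1662 in traced and 1436 in untraced fibroblasts after TAC, against 1165 and 1036 at sham. It was 1537 on the endothelial TAC array, against 1134 at sham. The chemokine gene Ppbp and the receptor gene Clec1b were higher in endothelial cells (-2.87 with limma adjusted p = 0.0428, and -2.17 with limma adjusted p = 0.0171). Both were dim on the fibroblast arrays, at log2 3.88 to 4.91 and 4.75 to 5.20. The median of the 6 detected was -0.18, with Gp1bb (1.66), Pf4 (0.42) and Itga2b (0.07) higher in fibroblasts without passing. Of the 4 detected in fibroblasts, the glycoprotein gene Gp1bb was at least 2-fold higher after TAC in both fibroblast populations, by 1.62 and 1.17. Mean fibroblast differences of these 4 ran from -0.30 for Gp9 to 1.39 for Gp1bb.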
